A study of Mus musculus with 4 samples.

Results

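Among droplets of cultured mouse adipose cells, 3482 of 28262 held almost no Malat1, a noncoding RNA that stays in the nucleus. These Malat1-poor droplets were chosen by their values: a barcode had to carry 5000 to 75000 UMIs (unique molecular identifiers, each marking 1 captured RNA molecule), 200 to 7500 genes and under 10% mitochondrial UMIs, with Malat1 below 0.1% of its UMIs. They were set against the 20618 barcodes of the same libraries that met the same limits and had Malat1 at 0.3% or more, called Malat1-rich droplets, and 4162 barcodes lay in between. The question was which transcripts are found in a droplet when the nuclear RNA is missing and which are missing with it. Whether such a droplet held a cell without its nucleus was not observed, so the droplets are named by their rule.

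The data were single-cell RNA sequencing, in the 10x Genomics 3′ format, of 4 cultures from chow-fed male C57BL/6J mice, 1 library each. iWAT DFAT and eWAT DFAT were de-differentiated fat (DFAT) cells, obtained by letting mature adipocytes from inguinal (iWAT) or epididymal (eWAT) white adipose tissue attach to the ceiling of an inverted flask and lose their fat. iWAT SVF and eWAT SVF were the adherent cells grown from the stromal vascular fraction (SVF) of each depot, which the study calls adipose stem and progenitor cells. All cells were detached with trypsin, stained with the dead-cell dye 7-AAD and sorted. The age of the mice and the number pooled per culture were not given in the sources used here.

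Messenger RNA is made and spliced in the nucleus and then exported, so most mature mRNA lies in the cytoplasm or on the endoplasmic reticulum. Unspliced precursors, a class of mRNAs with introns that are removed late, and long noncoding RNAs such as Malat1, Neat1 and Kcnq1ot1 stay behind. Malat1 gathers in nuclear speckles, and Neat1 is the scaffold of the paraspeckles next to them. Mitochondria carry a genome of their own, whose transcripts never enter the nucleus. The 3′ format primes on runs of A, and with intronic reads counted a priming site inside an intron gives a UMI to the gene as well.

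Malat1 does not end in a common poly(A) tail. Its 3′ end is cut in front of a small tRNA-like RNA, and a run of A written in the genome folds with U-rich stretches into a stabilizing triple helix. The sequence below is shown because this RNA defines the droplets and because an oligo-dT primer can bind its run of A. It lies on the minus strand at chr19:5795968-5796059 (GRCm38, GENCODE M21), inside the noncoding gene Malat1 (chr19:5795690-5802672), and the capitals mark the only run of 8 or more A in the 6983 bases of transcript Malat1-201, which is 12 bases long.
Malat1-201: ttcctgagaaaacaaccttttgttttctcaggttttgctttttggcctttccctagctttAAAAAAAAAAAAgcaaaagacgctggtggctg
Neat1 also has a short form, Neat1-202 (3004 bases, with AATAAA near its end), which counts per gene do not separate from the long one. The long form of Neat1 ends in the manner of Malat1. Its last 60 bases, chr19:5824708-5824767 on the minus strand, hold similar U-rich stretches and an A-rich end with no run of 8 A.
Neat1-201: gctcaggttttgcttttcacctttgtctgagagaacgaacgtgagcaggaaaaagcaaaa

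Malat1-poor droplets were 437 of 7629 in iWAT DFAT (5.73%, exact binomial 95% interval 5.22 to 6.27), 707 of 6464 in eWAT DFAT (10.9%), 1126 of 7424 in iWAT SVF (15.2%) and 1212 of 6745 in eWAT SVF (18.0%). The share was lower in both DFAT libraries than in both SVF libraries, but this difference was not tested, and intervals cover counting error only. In pooled UMIs, Malat1 made up 0.0448%, 0.0477%, 0.0420% and 0.0458% in the Malat1-poor droplets of the 4 libraries, in the order iWAT DFAT, eWAT DFAT, iWAT SVF and eWAT SVF that is kept from here on. It made up 1.01%, 0.897%, 1.13% and 0.980% in the Malat1-rich droplets, a gap that the rule set. Between 7.55% and 14.1% of the Malat1-poor droplets of a library had no Malat1 UMI at all.

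**Figure D1:**
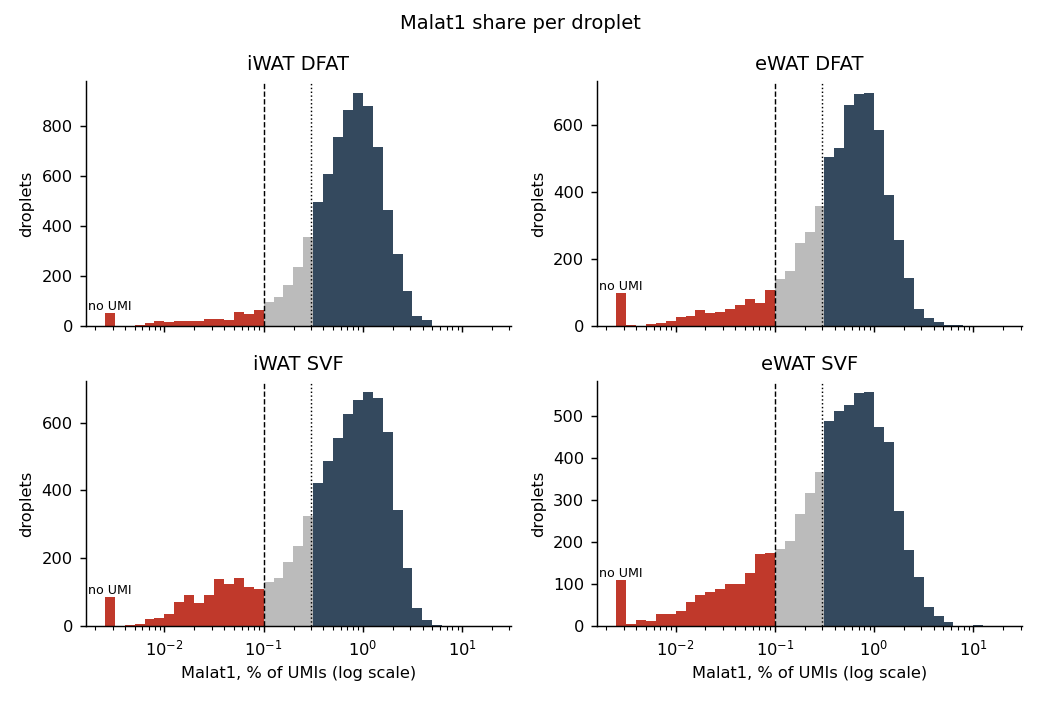
Number of droplets by the share of UMIs from Malat1 (log scale) in each library, with the limits of the Malat1-poor class (dashed, 0.1%) and of the Malat1-rich class (dotted, 0.3%); droplets with no Malat1 UMI stand at the left. Each library has 1 main peak near 1% and droplets far below it, more in the SVF libraries (1126 and 1212 Malat1-poor droplets) than in the DFAT libraries (437 and 707). In iWAT SVF the counts dip just under the 0.1% limit, to 108 in a step, with 143 and 142 in nearby steps.

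Malat1 had no gap at the limit. Droplets just inside it, at 0.09% to under 0.1%, numbered 28, 54, 56 and 89, and droplets just outside, at 0.1% to under 0.11%, numbered 44, 51, 52 and 70. Neat1 stood at 261, 117, 52.8 and 113 CPM (UMIs of a gene scaled to a fixed total per library sum) just inside and at 257, 112, 91.5 and 137 CPM just outside. The limit thus cut through droplets without a gap. In iWAT SVF the counts dipped just under it, and in both SVF libraries Neat1 was lower just inside than just outside.

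The Malat1-poor droplets held a median of 14726, 19534, 21172.5 and 25271.5 UMIs, fewer in each library than the 22643, 28551, 26071 and 27987.5 of Malat1-rich droplets, where the rule bounded both. When each droplet was thinned to 5000 UMIs, the median number of genes was 1915, 1856, 1854 and 1874 in the poor class and 2203, 2140, 2130 and 2117 in the rich class. Free RNA in the suspension, read from barcodes with 1 to 100 UMIs, held 1.02%, 0.909%, 1.01% and 0.681% Malat1, 279 to 655 CPM of Neat1 and 1.68% to 4.67% mitochondrial UMIs. Doublets were not removed, and 30 of the 3482 barcodes (0.862%) recurred in another library, against 194 of all 28262 (0.686%).

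Most Malat1-poor droplets carried stromal transcripts. At least 3 of 10 stromal markers (among them the collagen genes Col1a1, Col1a2 and Col3a1 and the receptor gene Pdgfra) had UMIs in 92.4%, 80.1%, 94.3% and 94.4% of Malat1-poor and in 99.9%, 96.8%, 99.9% and 98.9% of Malat1-rich droplets, which were deeper. At a stricter limit, used for the stromal droplets alternative below, the shares were 81.7%, 72.3%, 87.7% and 88.4% against 99.4%, 92.2%, 99.3% and 97.7%. The summed level of the 10 markers, unscaled, was 10764, 6764, 14748 and 15118 CPM in the poor class and 10880.3, 6515, 15546 and 13903 CPM in the rich class, higher in the poor class in both eWAT libraries. Red blood cells and platelets have no nucleus, and their defining genes were absent or near absent. Hba-a1, Hba-a2, Hbb-bs and Hbb-bt had no UMI in any Malat1-poor droplet, and the 5 platelet genes summed to at most 7.14 CPM in a library, with Gp9 at 0 in all 4. The other lists, at 3 or more markers, reached 5.36% of droplets for mesothelial genes in eWAT SVF, 2.12% for adipocyte genes in eWAT DFAT and 1.82% for endothelial genes in eWAT SVF. The corresponding shares of Malat1-rich droplets were 9.13%, 5.36% and 2.26%. Immune genes reached at most 0.330% of Malat1-poor droplets, and Ptprc, the pan-leukocyte gene, was at 0 in 3 of the 4.

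UMIs were summed over each class in each library, and 9801 genes with a mean of 5 CPM or more were tested with edgeR's quasi-likelihood test, in which library was a block and Malat1 itself was left out. The 4 libraries were 4 different cultures, so a call refers to the fitted ratio over them, in droplets selected on another RNA. At an adjusted p below 0.05, 3956 genes (40.4% of those tested) were lower in Malat1-poor droplets and 3816 (38.9%) were higher. The 2 directions differed in size: 1085 genes (11.1%) were called lower by at least 2-fold, but 24 (0.245%) were called higher by as much. The 4 libraries had the same sign for 7956 genes (81.2%). This held for 3854 of the 3956 genes called lower and for 3671 of the 3816 called higher. The limit of 5 CPM is on the mean of both classes: 400 of the 3956 lower genes, 236 of the 1085 lower by 2-fold, were under it in the Malat1-poor class, and 81 of the 3816 higher genes were under it in the Malat1-rich class. These ratios are relative to a TMM scaling, which puts the median gene at -0.01. Scaling to total UMIs alone moved the median gene to -0.27 and the share of calls that were lower from 50.9% to 70.4%, so small rises depend on the scale.

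RNAs listed as nuclear, nearly all of them noncoding, were lower where Malat1 was low. Of 27 listed, 15 were expressed enough to test, 14 fell, 0 rose, and 13 fell by 2-fold or more, beside 40.4% lower and 11.1% lower by 2-fold of all genes. Mirg and Ftx were below 5 CPM in the Malat1-poor class and were tested because of their level in the Malat1-rich class. Their median log2 ratio was -1.83 (-1.73, -1.55, -2.12 and -1.78 in the 4 libraries), beside -0.01 over all genes tested. A Malat1-poor droplet held a median of 5, 6, 8 and 7 UMIs of the whole list, and a Malat1-rich droplet 51, 41, 53 and 47.

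Neat1 (noncoding, chr19:5824708-5845478, minus strand) was counted over all its forms, so the long scaffold form was not measured alone. It stood at 112, 65.4, 36.1 and 61.5 CPM in Malat1-poor droplets and at 722, 326, 342 and 367 CPM in Malat1-rich droplets. The classes did not overlap in any pairing of libraries. Its level was 6.51-fold lower (log2 ratio -2.70 ± 0.13, standard error of the fit, adjusted p = 2.65e-07, edgeR's quasi-likelihood test). The median Malat1-poor droplet had 0 Neat1 UMIs in every library, against 16, 8, 7 and 8 in the rich class. Kcnq1ot1, the antisense RNA that silences an imprinted domain, stood at 18.4, 18.2, 7.74 and 11.1 CPM against 110, 107, 86.7 and 74.6 CPM. It fell 7.17-fold (log2 ratio -2.84 ± 0.14), the strongest change of the list. In the intermediate droplets, unscaled Neat1 levels of 428, 207, 129 and 193 CPM lay between those of the poor class (109, 59.7, 32.3 and 54.2) and of the rich class (819, 359, 372 and 386).

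The other members ranged widely. Airn, the RNA that silences Igf2r in cis, changed by -1.85 ± 0.11 on the log2 scale, Lncpint by -2.25 ± 0.08, Dleu2 by -2.31 ± 0.08 and Pvt1, next to Myc, by -1.61 ± 0.11. The microRNA host genes Mir99ahg and Mir100hg changed by -2.72 ± 0.14 and -2.02 ± 0.13. The RNAs of the imprinted Dlk1 domain had smaller fitted changes than these: Meg3 changed by -1.41 ± 0.09, Mirg by -1.37 ± 0.11 and Rian by -1.01 ± 0.06. The difference was not tested and did not hold in every library: in eWAT SVF, Meg3 was at -1.67 and Pvt1 at -1.60. Meg3 still had 98.6, 49.7, 184 and 127 CPM in Malat1-poor droplets, against 239, 108, 534 and 405 CPM.

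Tug1 was the exception. This noncoding RNA, known in both nucleus and cytoplasm, had 22.3, 18.2, 20.8 and 20.8 CPM in Malat1-poor and 22.1, 18.4, 22.5 and 20.7 CPM in Malat1-rich droplets. The classes overlapped, and the log2 ratio of -0.03 ± 0.06 did not pass the test (adjusted p = 0.69, edgeR's quasi-likelihood test). Gm47283, which was on the list but is annotated as protein-coding, fell by 0.34 on the log2 scale.

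Noncoding RNAs of the cytoplasm and host genes of small nucleolar RNAs went the other way. Of 9 tested, 7 rose, 1 fell and 1 passed in neither direction, with a median of 0.43, beside 38.9% higher and 40.4% lower of all genes. Gas5, Snhg1, Snhg8 and Zfas1 span under 5 kb. Tested genes of all types at that span had a median of 0.52, with 82.5% higher, so the list did not exceed short genes. Gas5, whose introns hold small nucleolar RNAs and whose spliced RNA is exported and decays on ribosomes, rose by 0.52 ± 0.04, Snhg8 by 0.45 ± 0.05 and Snhg1 by 0.28 ± 0.05. Snhg5 was the one that fell, by 0.59, and Zfas1 was at -0.08 ± 0.06. The 55 annotated lincRNAs tested had a median of -0.21, with 49.1% lower and 36.4% higher beside 40.4% and 38.9% of all genes, and 38.2% were lower by 2-fold or more beside 11.1% of all genes.

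**Figure D2:**
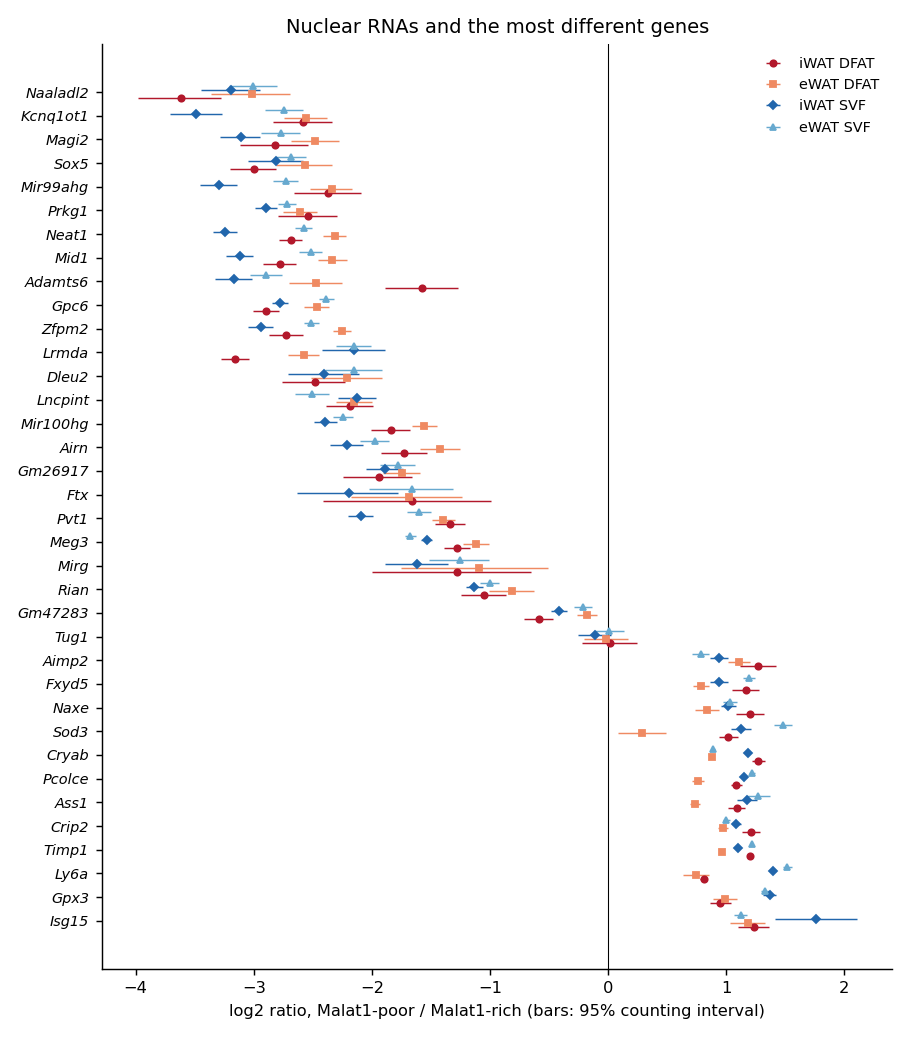
Log2 ratio of Malat1-poor to Malat1-rich droplets in each library (TMM-scaled; bars, exact 95% counting interval) for the nuclear RNAs tested and for the 12 genes with the largest fitted ratio in each direction among genes of 20 CPM or more. Naaladl2 (-3.18 in the fit) and Kcnq1ot1 (-2.84) lie lowest, the imprinted RNAs Meg3 and Rian lie between -0.81 and -1.67, Tug1 sits at 0, and the rises run from 0.29 (Sod3 in eWAT DFAT) to 1.76 (Isg15 in iWAT SVF).

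The loss among protein-coding genes followed the length of the gene. Genes that span under 5 kb had a median log2 ratio of 0.53 (976 genes, 83.3% higher and 5.02% lower), those of 5 to under 20 kb 0.34, those of 20 to under 50 kb -0.06, those of 50 to under 100 kb -0.47 and those of 100 kb or more -1.02 (90.9% of 1454 lower). The 99 genes of 500 kb or more had a median of -1.96, with 97.0% lower. In UMIs, genes of 100 kb or more gave 5.08%, 4.65%, 4.46% and 5.13% of the Malat1-poor class and 12.2%, 10.1%, 10.6% and 10.7% of the Malat1-rich class. Spearman's correlation of the ratio with span was -0.72 over 9797 genes, which share libraries and are not independent. Of the 1085 genes at least 2-fold lower, 983 (90.6%) spanned 50 kb or more. Of the 24 at least 2-fold higher, 23 spanned under 20 kb, and 6 were genes induced by interferon, singled out after their values were seen. Among all 9797 genes with a span, 1511 were of 50 to under 100 kb and 1481 of 100 kb or more. In the same set, 1026 were under 5 kb and 3044 of 5 to under 20 kb.

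The order of the span classes was the same among weak and strong genes. Among genes of 5 to 10 CPM the median went from 0.30 (under 5 kb) to -1.13 (100 kb or more), and among genes over 100 CPM from 0.60 to -0.85. The medians also differed by annotated exonic length, the union of exons over all transcripts of a gene, within a span. Of genes of 100 kb or more, those with under 2 kb of annotated exon had a median of -0.23 (17 genes), those with 2 to under 4 kb -0.56 (113), those with 4 to under 8 kb -0.95 (511) and those with 8 kb or more -1.13 (813). Among genes of 20 to under 50 kb the same 4 classes gave 0.42, 0.13, -0.12 and -0.30. The share of intron in a gene did not follow one order: at 20 to under 50 kb, genes of 90% or more intron had a median of 0.21 and those of 50 to under 90% of -0.11, and at 100 kb or more the medians were -1.05 and -0.88. The deposited counts do not separate exonic from intronic UMIs, so precursor and mature RNA of a gene cannot be told apart.

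**Figure D3:**
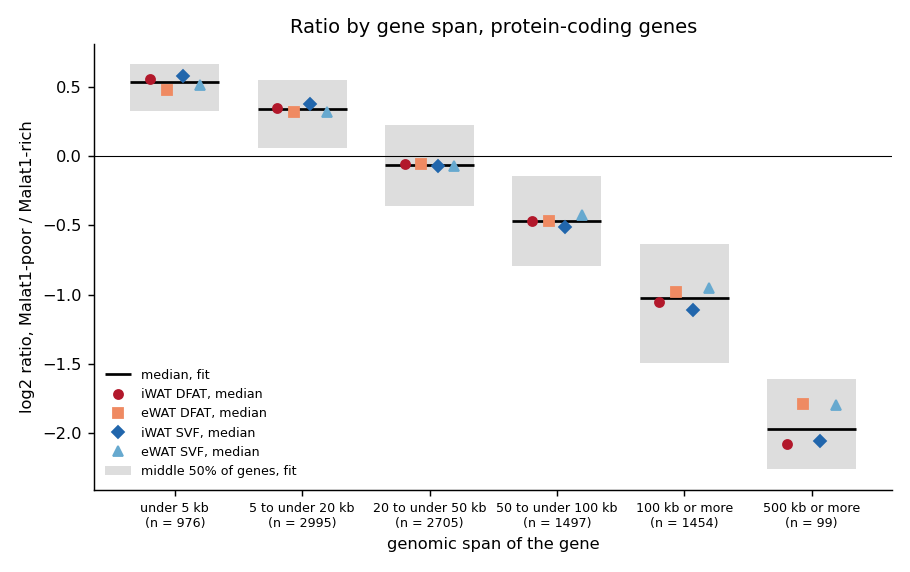
Log2 ratio of Malat1-poor to Malat1-rich droplets for protein-coding genes by genomic span: black lines are medians of the fit, grey boxes the middle 50% of genes, and symbols the medians in each library; the last class is part of the one before. The median falls from 0.53 under 5 kb to -1.96 at 500 kb or more, and the 4 libraries follow the same steps.

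Among genes of 20 CPM or more, most of the 12 largest falls were of long protein-coding genes, beside noncoding RNAs such as Kcnq1ot1 and Neat1. Of these 12 genes, 6 had a mean under 20 CPM in the Malat1-poor class (Naaladl2, Kcnq1ot1, Magi2, Adamts6, Sox5 and Mir99ahg) and passed that limit through the Malat1-rich class. Naaladl2, a peptidase-like gene of 1346 kb, had 9.57, 5.43, 5.85 and 7.23 CPM in Malat1-poor droplets and 118, 43.9, 53.4 and 58.0 CPM in Malat1-rich droplets, a 9.08-fold fall (log2 ratio -3.18 ± 0.10). Magi2 (1478 kb), a scaffold of cell junctions, fell 6.98-fold. Sox5 (954 kb), a transcription factor of mesenchymal cells, had 30.7, 10.4, 6.82 and 18.1 CPM against 245, 61.5, 47.8 and 117 CPM. Prkg1, the cGMP-dependent kinase, changed by -2.71 ± 0.07, Gpc6, a cell-surface glypican, by -2.63 ± 0.09, Zfpm2, a cofactor of GATA factors, by -2.60 ± 0.10, Mid1, a ubiquitin ligase on microtubules, by -2.69 ± 0.11, the protease gene Adamts6 by -2.67 ± 0.19 and Lrmda by -2.56 ± 0.15. Their spans run from 209 kb (Adamts6) to 1201 kb (Prkg1), and the rule that named them asked for the same sign in all 4 libraries.

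Transcription and chromatin regulators with long genes fell as a group. Of 30 tested, 29 fell, 0 rose and 17 fell by 2-fold or more, against 40.4% and 11.1% of all genes tested, with a median of -1.11. Ebf1, a factor of adipose progenitors, had 326, 183, 222 and 189 CPM against 1040.3, 501, 752 and 526 CPM, a 3.01-fold fall. Foxp1 fell 2.89-fold, Zeb2, a repressor of epithelial genes, by 1.33 ± 0.06 on the log2 scale and Zbtb20 by 1.19 ± 0.09. Auts2 (1106 kb) was the lowest of the list at -1.98, and Nfix, at -0.04 ± 0.05, was the one not called. The list holds long genes by design, and its median is near that of protein-coding genes of 100 kb or more (-1.02).

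Messages that keep introns late and belong to nuclear speckles fell too. Of 30 tested, 26 fell, 1 rose and 3 were not called, with a median of -0.53, beside 40.4% lower and 38.9% higher of all genes. Ogt, the enzyme that adds O-linked GlcNAc and whose retained intron is well known, changed by -1.40 and Nktr by -1.36. Clk1, a kinase of splicing factors, changed by -0.98 at a span of 14 kb, and Ccnl1 by -0.79 at 12 kb, where protein-coding genes of 5 to under 20 kb had a median of 0.34. Rbm39 had 256, 232, 223 and 193 CPM against 438, 321, 358 and 279 CPM, a change of -0.61 ± 0.06. The splicing factor Srsf7 (7.2 kb) was the one that rose, by 0.36 ± 0.07, and Ddx5 (8.8 kb) changed by -0.14 ± 0.05. The list also holds long genes such as Macf1 (335 kb, -1.06), and the part of gene span in its fall was not tested. Ogt, Nktr, Clk1 and Ccnl1 were named after their values were seen.

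**Figure D4:**
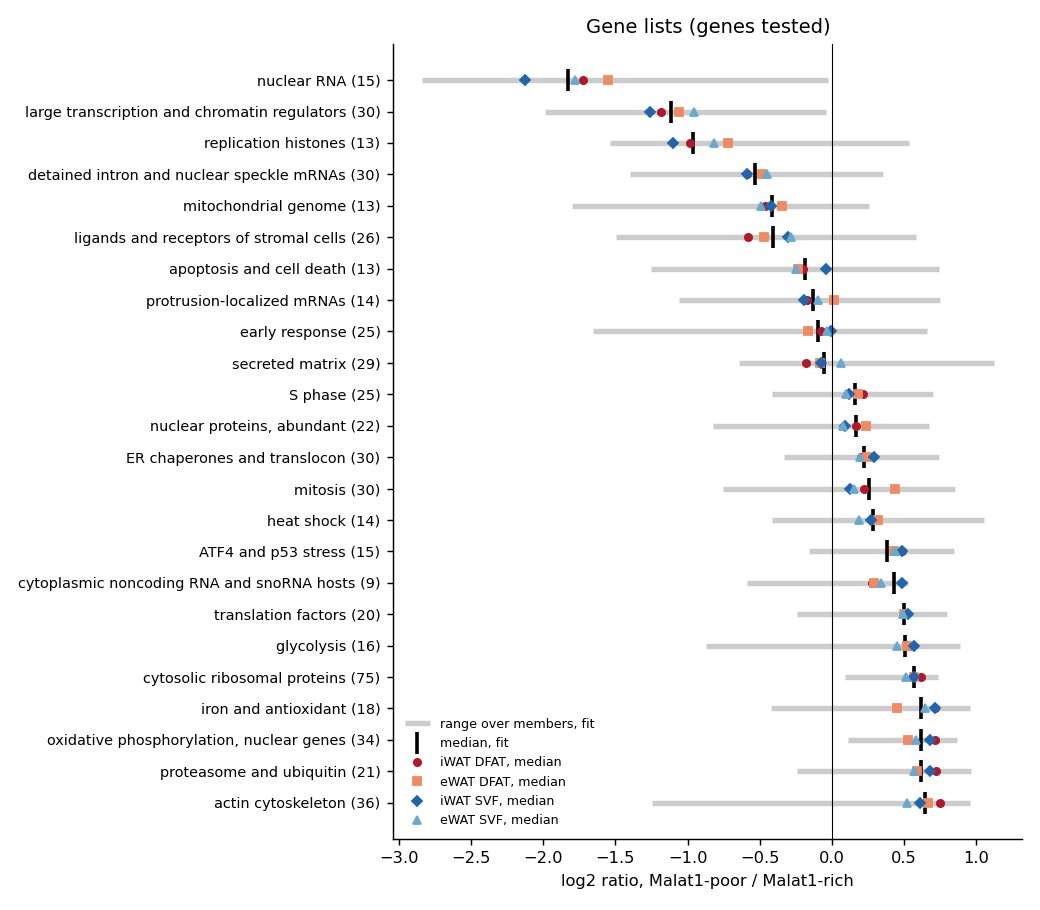
Log2 ratio of Malat1-poor to Malat1-rich droplets for 24 gene lists, with the number of genes tested: black marks are list medians of the fit, grey bars the range over members and symbols the medians in each library. Nuclear RNAs (-1.83), large regulators (-1.11) and replication histones (-0.96) lie lowest, and actin (0.65), proteasome (0.62) and oxidative phosphorylation genes (0.62) highest.

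Histone genes were among the short genes that fell. Replication-dependent histone mRNAs have no introns and no poly(A) tail and end in a stem-loop. Because the 3′ format primes on runs of A, their counts need not represent all of these mRNAs. Of 13 tested, 10 fell, 1 rose and 2 were not called, with a median of -0.96, beside 40.4% lower and 38.9% higher of all genes. Hist1h1a, Hist1h1d and Hist1h2ab were below 5 CPM in the Malat1-poor class and were tested because of their level in the Malat1-rich class. Hist1h1b, a linker histone, had 62.0, 102, 55.3 and 87.1 CPM against 140, 174, 121 and 153 CPM (log2 ratio -0.96 ± 0.08), Hist1h1e changed by the same amount and Hist2h2ac by -1.54 ± 0.09. Hist1h2bc, which spans 9 kb and 2 exons in the annotation, rose by 0.53 ± 0.08. Hist1h2ap had a ratio of 0.11 ± 0.06 and Hist1h1c of 0.10 ± 0.06, and neither was called. Among droplets with fewer than 2 UMIs of S phase and mitosis genes per 5000, the list's median was 0.049. These were few, 36, 39, 81 and 76 Malat1-poor droplets, the ribosomal and mitochondrial medians moved there too (to 1.16 and -0.13), and the part of the cell cycle was not tested. Of the 49 protein-coding genes under 5 kb that were called lower, 11 were histone genes and 11 were genes of the mitochondrial genome. Among these, Hist1h4h and Hist1h2bj, which were not on the list, were also below 5 CPM in the Malat1-poor class (means of 4.58 and 4.65).

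Mitochondrial transcripts, which are never nuclear, were mostly lower in Malat1-poor droplets. Of 13 protein-coding genes of the mitochondrial genome, 11 fell, 1 rose and 1 was not called, with a median of -0.41, beside 40.4% lower and 38.9% higher of all genes. The rule used the mitochondrial share to choose droplets of both classes, so these calls are a description and not a test. Their share of UMIs was 2.30%, 1.49%, 1.61% and 1.73% in the Malat1-poor class and 3.23%, 2.11%, 2.22% and 2.37% in the Malat1-rich class, both bounded at 10% per droplet by the rule. mt-Atp6, an ATP synthase subunit, had 4431, 3023, 2918 and 3099 CPM against 5971, 3828, 3907 and 4197 CPM (-0.41 ± 0.03). mt-Nd6, the only protein gene on the light strand, changed most, by -1.80 ± 0.09, and was below 5 CPM in the Malat1-poor class (mean 4.69). mt-Cytb, of complex III, rose by 0.26 ± 0.04 and had 3807, 3130, 3518 and 4200.1 CPM against 3248, 2774, 2779.9 and 3411 CPM. mt-Nd6 and mt-Cytb, the lowest and the highest of the 13, are neighbouring protein genes on opposite strands.

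The nuclear genes of the same respiratory chain rose. Of 34 tested, 33 rose, 0 fell and 1 was not called, with a median of 0.62, beside 38.9% of all genes called higher. This was near the median of protein-coding genes under 5 kb and over 100 CPM (0.60). Cox4i1, of complex IV, had 1002, 1076, 1312 and 1236 CPM against 603, 758, 861 and 814 CPM (0.61 ± 0.05), and the ATP synthase subunit genes Atp5b and Atp5g1 rose by 0.63 ± 0.05 and 0.72 ± 0.04. Ndufs4, a complex I subunit that spans 100 kb, rose by 0.51 ± 0.06. It was one of 45 protein-coding genes of 100 kb or more that rose, with Snrpn (158 kb) the highest at 0.83 ± 0.07; these 2 were singled out after their values were seen.

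Every cytosolic ribosomal protein gene tested rose: 75 of 75, beside 38.9% of all genes, with a median of 0.57 and a range of 0.09 (Rpl23a) to 0.73. With total UMIs as the only scaling the median was 0.31. Protein-coding genes over 100 CPM had a median of 0.60 under 5 kb and of 0.54 at 5 to under 20 kb. The list's median of 0.57 was thus near that of short, strongly expressed genes. Rps2 had 6868, 7281, 7864 and 9320.0 CPM in Malat1-poor droplets and 4289, 4807, 5106 and 6239 CPM in Malat1-rich droplets, a 1.54-fold rise, and Rpsa, of the small subunit, rose 1.66-fold. As a share of UMIs the list went from 18.4%, 19.3%, 19.9% and 18.8% to 23.8%, 23.4%, 23.9% and 22.5%. In numbers, the median droplet held 3556, 4498, 4988.5 and 5446.5 of these UMIs in the poor class and 4269, 5539, 5212 and 5309.5 in the rich class. Their count per droplet was thus lower in 3 libraries and higher in eWAT SVF, while their share was higher in all 4. Of 20 translation factor genes, 17 rose and 1 fell, beside 38.9% and 40.4% of all genes, with Eef1a1, the carrier of aminoacyl-tRNA, at 0.53 ± 0.03 and Tpt1 at 0.37 ± 0.03.

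**Figure D5:**
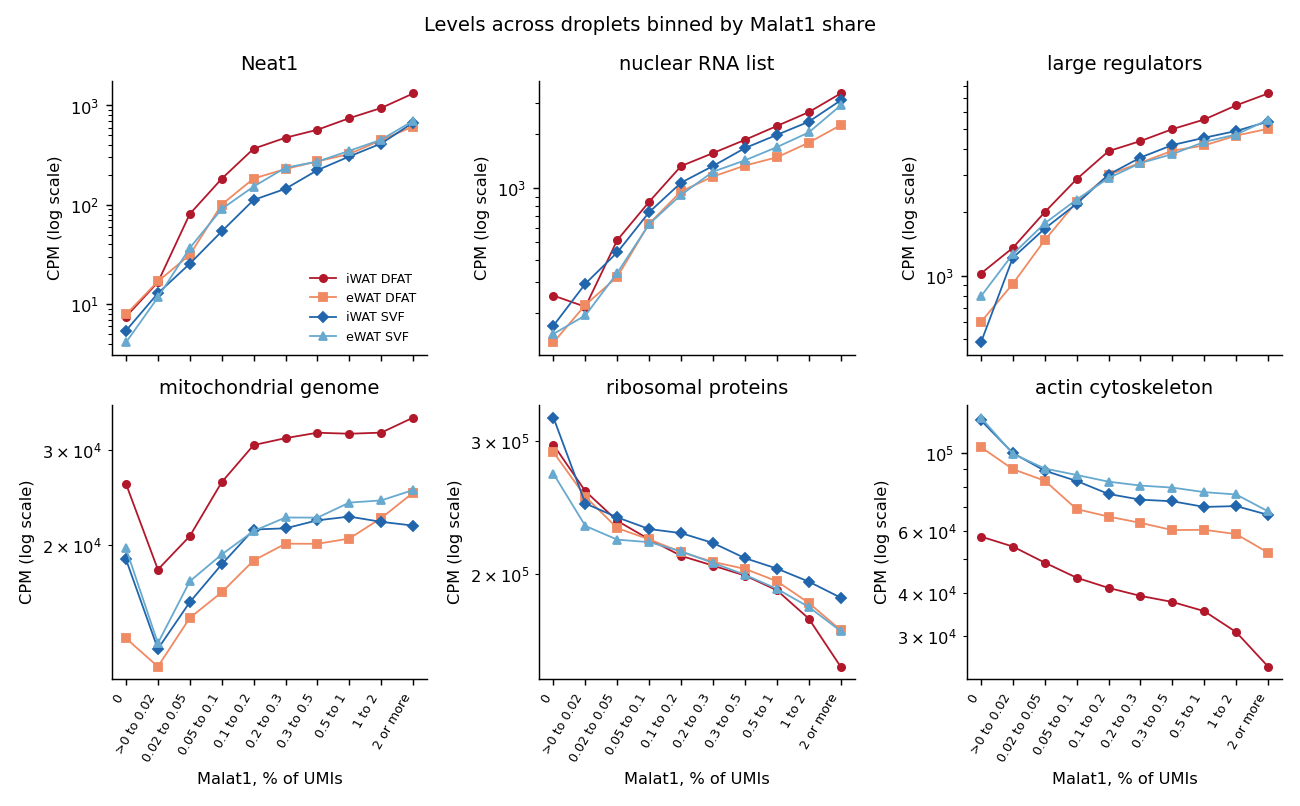
Level (CPM, unscaled, log axis) of Neat1 and of 5 gene lists in droplets of each library binned by their Malat1 share, from no Malat1 UMI to 2% or more. Neat1 climbs from 4.14 to 7.91 CPM without Malat1 to 614 to 1319 CPM at 2% or more, large regulators climb with it, ribosomal protein and actin genes descend, and mitochondrial genes dip at above 0 to 0.02%.

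Within the Malat1-poor class Neat1, the large regulators and the ribosomal protein genes were graded over the Malat1 bins, and mitochondrial genes were graded among droplets with a Malat1 UMI. In droplets with no Malat1 UMI, Neat1 stood at 7.52, 7.91, 5.43 and 4.14 CPM, and in those at 0.05% to under 0.1% at 183, 100.7, 54.1 and 90.9 CPM. The large regulators summed to 1022, 601, 481 and 797 CPM without Malat1 and to 2875, 2244, 2195 and 2298 CPM at 0.05% to under 0.1%. Ribosomal protein genes went from 296418, 289775, 322117 and 271327 CPM down to 222096, 222048, 229172 and 220168 CPM. Mitochondrial genes had 25931, 13413, 18788 and 19681 CPM without Malat1 and 26105, 16323, 18385 and 19180 CPM at 0.05% to under 0.1%, higher without Malat1 in both SVF libraries and lower in both DFAT libraries. At above 0 to 0.02% they had 17984, 11888, 12821 and 13135 CPM and at 0.02% to under 0.05% 20741, 14635, 15650.5 and 17107 CPM, so they stood in that order over the 3 bins with Malat1 in each library. Droplets without a Malat1 UMI were shallow, with a median of 8633.5, 7182.5, 7038 and 8559.5 UMIs, and their secreted matrix genes (13269, 11621, 10561 and 17608 CPM) were below those of droplets at 0.05% to under 0.1% (23402, 22014, 32685 and 31237 CPM).

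Proteasome and ubiquitin genes had 19 of 21 higher (median 0.62), beside 38.9% of all genes, with the ubiquitin gene Ubb at 0.86 ± 0.05 and Psma7 at 0.62 ± 0.06. Iron and antioxidant genes had 16 of 18 higher (median 0.62) beside the same share: the ferritin light chain Ftl1 had 8000.5, 8422, 9338 and 10924 CPM against 4263, 5402, 5054 and 6284 CPM, and the peroxidases Prdx1 and Gpx4 rose by 0.82 ± 0.06 and 0.78 ± 0.05. Glycolytic genes had 10 of 16 higher and 1 lower (median 0.51), beside 38.9% and 40.4% of all genes. Gapdh rose 1.85-fold, Ldha by 0.72 ± 0.04 on the log2 scale, and Hk2, a hexokinase that spans 49 kb, fell by 0.87 ± 0.07. Protein-coding genes over 100 CPM had a median of 0.60 under 5 kb and of 0.54 at 5 to under 20 kb. The medians of the proteasome, iron and glycolysis lists were near these.

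Of 36 actin cytoskeleton genes 30 rose and 4 fell (median 0.65), beside 38.9% higher and 40.4% lower of all genes. Protein-coding genes under 5 kb and over 100 CPM had a median of 0.60. Lgals1, a galectin on that list, had 6585, 7509, 8435 and 6634 CPM against 2969, 4059.7, 4434 and 3626 CPM, a 1.94-fold rise. Actb rose by 0.56 ± 0.04, the actin-sequestering peptide gene Tmsb4x by 0.61 ± 0.05, S100a6 by 0.75 ± 0.03 and Acta2, smooth muscle actin, by 0.85 ± 0.09. The 4 that fell span 69 kb or more: Vcl, which encodes the adhesion protein vinculin, changed by -1.25 ± 0.11, the myosin gene Myh9 by -0.75 ± 0.06, Actn4 by -0.24 ± 0.06 and Actn1 by -0.19 ± 0.04. Capzb, at 99 kb, rose by 0.59 ± 0.04, so members of like span differed in direction. Among 14 mRNAs known to gather in cell protrusions, 7 fell, 4 rose and 3 were not called (median -0.13), not far from the 40.4% lower and 38.9% higher of all genes. Ddr2, a collagen receptor, changed by -0.85 ± 0.07, and Tubb2a, a tubulin, rose by 0.75 ± 0.05, while Palld, at 391 kb, was at 0.03 ± 0.07. The list's median was 0.18 in the few low cell cycle droplets, and Palld was at -0.23 with total UMIs as the only scaling.

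Of 29 secreted matrix genes tested, 12 fell, 9 rose and 8 were not called (median -0.06), near the 40.4% lower and 38.9% higher of all genes. The inhibitor of metalloproteases Timp1 had 5242, 8594, 2698 and 3531 CPM against 2281, 4401, 1254 and 1515 CPM, a 2.18-fold rise (adjusted p = 1.86e-07, edgeR's quasi-likelihood test). Sparc rose by 0.53 ± 0.04 and the proteoglycan gene Bgn by 0.46 ± 0.06. The fibrillar collagen genes Col1a1 (-0.06 ± 0.04) and Col1a2 (-0.01 ± 0.06) were not called, and the long genes of basement membrane collagen Col4a1 (114 kb, -0.62 ± 0.05), of Col12a1 (120 kb, -0.56 ± 0.07) and of fibrillin, Fbn1 (207 kb, -0.40 ± 0.04), fell. Genes of the endoplasmic reticulum had 18 of 30 higher and 4 lower, beside 38.9% and 40.4% of all genes (median 0.23, but -0.034 with total UMIs as the only scaling). The translocon genes Sec61g (0.65 ± 0.04) and Sec61b (0.59 ± 0.04) and the collagen chaperone Serpinh1 (0.45 ± 0.04) rose, and the chaperones Hsp90b1 (-0.02 ± 0.04) and Calr (0.08 ± 0.04) were not called.

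Of 26 genes of surface receptors and growth factors tested, 18 fell, 4 rose and 4 were not called (median -0.40), beside 40.4% lower and 38.9% higher of all genes. The receptor genes Egfr (-1.50 ± 0.06), Insr (-1.45 ± 0.07) and Igf1r (-1.40 ± 0.07) fell most together with Tgfbr1, and they span 158 kb or more except Tgfbr1, at 62 kb. The short chemokine gene Ccl2, a monocyte attractant, rose by 0.58 ± 0.10, and Csf1 fell by 0.24 ± 0.05. In genes of cell death, 7 of 13 fell and 4 rose (median -0.19), not far from those shares of all genes: Bcl2 (176 kb), which holds apoptosis back, changed by -1.25 ± 0.09, Bak1, which drives it, rose by 0.74 ± 0.06, and Mcl1 was at -0.13 ± 0.07.

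Of 25 early response genes, 11 fell, 8 rose and 6 were not called (median -0.09), shares near the 40.4% lower and 38.9% higher of all genes tested. Fosb changed by -1.65 ± 0.14 and Atf3 by -0.67 ± 0.12, while Junb (0.34 ± 0.06), Jund (0.41 ± 0.05) and Ier3 (0.45 ± 0.07) rose, and Fos, at -0.09 ± 0.16, was not called. In the few low cell cycle droplets, Junb (-0.044) and Ier3 (-0.022) were not called. Heat shock genes had 9 of 14 higher and 1 lower (median 0.28), beside 38.9% and 40.4% of all genes. Cryab, a small chaperone, was at 1.06 ± 0.07 and Hspa8 at 0.54 ± 0.04. Of 15 ATF4 and p53 target genes, 13 rose (median 0.38), beside 38.9% of all genes, among them Bax at 0.57 ± 0.05 and Phgdh, of serine synthesis, at 0.85 ± 0.08. Abundant mRNAs for nuclear proteins had 12 of 22 higher and 4 lower (median 0.17), beside 38.9% and 40.4% of all genes: H2afz, a histone variant whose mRNA has a poly(A) tail, rose by 0.56 ± 0.06 and the export factor gene Ran by 0.67 ± 0.06, and Npm1 by 0.27 ± 0.04. The median of this list was -0.091 with total UMIs as the only scaling.

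The cell cycle lists held genes of both directions. Of 25 S phase genes, 12 rose and 3 fell (median 0.16), beside 38.9% and 40.4% of all genes, with Tyms at 0.70 ± 0.08 and Dut at 0.61 ± 0.06. Of 30 mitosis genes, 17 rose and 7 fell (median 0.26), beside the same shares: Ube2c rose by 0.84 ± 0.07 and Tubb4b by 0.86 ± 0.05, while Kif11 (-0.75), Mki67 (-0.58) and Top2a (-0.42) fell. With total UMIs as the only scaling both medians were below 0, at -0.10 and -0.0037.

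Gpx3, a secreted glutathione peroxidase, had 164, 64.0, 179 and 332 CPM against 84.7, 32.3, 69.3 and 132 CPM, a 2.25-fold rise. Isg15, a ubiquitin-like protein induced by interferon, had 70.6, 32.4, 4.62 and 121 CPM against 29.96, 14.3, 1.36 and 55.3 CPM, a 2.39-fold rise. These were among the 12 largest rises at 20 CPM or more. Ly6a (Sca-1), a progenitor surface protein, rose by 1.13 ± 0.12, Crip2 by 1.07 ± 0.05, Ass1, of arginine synthesis, by 1.06 ± 0.08, Pcolce, an enhancer of procollagen processing, by 1.06 ± 0.07, Sod3, extracellular superoxide dismutase, by 1.03 ± 0.15, Naxe by 1.02 ± 0.06, Fxyd5 by 1.02 ± 0.07 and Aimp2 by 1.01 ± 0.08.

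For a small number of genes the ratio differed between culture types. Tested as a difference of ratios, 51 of 9801 genes (0.52%) differed between the DFAT and the SVF libraries, 48 with the lower ratio in DFAT. Between the iWAT and the eWAT libraries the same edgeR test called 0 genes (0%), with 359 at an unadjusted p below 0.05. This compared 2 libraries with 2, and culture type cannot be told apart from whatever else differed between those libraries. G0s2, an inhibitor of fat breakdown, had log2 ratios of -1.83 and -0.89 in the DFAT and of 0.65 and 0.81 in the SVF libraries. The complement genes C3 (0.02, 0.02, 0.79 and 0.84) and Serping1 (0.07, -0.17, 1.09 and 0.87) stood near 0 in DFAT and at 0.79 or more in SVF. Saa3, an acute phase gene, went the other way, with -0.01 and -0.40 in DFAT and -2.45 and -1.53 in SVF. Neat1 (-2.69, -2.32, -3.24 and -2.58) was not among the 51 genes.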

How the data were processed

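The authors deposited UMI counts per gene and barcode, made with Cell Ranger 7.0.0 on mm10 with intronic reads included, per the labels and the methods. The matrix headers name version 7.1.0 for 3 libraries and 4 for iWAT SVF, and whether intronic reads were counted alike there was not tested. Genes of 100 kb or more gave 10.6% of Malat1-rich UMIs in iWAT SVF and 10.1% to 12.2% in the other libraries. All barcodes were present, and the limits in the report were applied here. Doublets were not removed.

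Counts were summed per library and class (7422516 to 32850275 UMIs in the Malat1-poor and 126976515 to 155524632 in the Malat1-rich sums) and tested with edgeR 4.0.16 in R 4.3.3 (quasi-likelihood, library as block, TMM, mean of 5 CPM or more, Benjamini-Hochberg over 9801 genes, adjusted p below 0.05). Levels are CPM on the TMM scale unless called unscaled. The error is the standard error of the fitted log2 ratio, derived from the test. The fit draws the spread of each gene partly from that of other genes. Errors and p-values can therefore understate the scatter between the 4 cultures. In simulated counts of this comparison over 9802 genes, 200 genes were changed 2-fold. Of these 200, 98% were recovered, and 5.77% of calls were false. In the data 40.4% of genes were called lower and 38.9% higher, and the share of false calls at such rates was not tested. GENCODE M21 (GRCm38) gave spans for 32158 of 32285 features (99.6%).

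Members and gene lists were chosen with earlier results of these data known. Genes named were those of the nuclear RNA list, the 12 largest ratios each way at 20 CPM or more with the same sign in 4 libraries, up to 5 most abundant members of other lists and the cell type markers. Other list members were named as extremes or exceptions after their values were seen. The 2-fold calls, exonic length classes and differences between cultures were also added after seeing the data. Alternatives were other scalings, DESeq2 1.42.0, other limits, matched depth, free RNA subtraction, stromal or low cell cycle droplets only, no block and each library left out.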

Additional observations from a re-analysis of the deposited data

Results flagged for a closer look

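The ratio of Malat1-poor to Malat1-rich droplets differed between the DFAT and the SVF libraries for 51 genes, by edgeR's quasi-likelihood test of the difference itself, with 1307 at an unadjusted p below 0.05. The comparison has 2 libraries a side and was added after seeing the data. The difference of log2 ratios, DFAT minus SVF, was -1.81 for G0s2, -1.39 for Lbp, an acute phase protein that binds lipopolysaccharide, 1.34 for Saa3 and -2.04 for Cdo1, of cysteine breakdown. It was -1.10 for Irak3, -1.02 for Serping1, -0.80 for C3, -0.72 for the growth factor gene Vegfd and -0.68 for Ly6a. It was -0.94 for Timp3, -0.55 for the fatty acid carrier gene Fabp4, -0.54 for Ccl2 and -0.48 for the cell cycle inhibitor gene Cdkn1a. Cdo1 had ratios of -1.41 and -1.72 in DFAT and 0.55 and 0.34 in SVF. Beside these, adipocyte markers summed to 255, 1835, 82.8 and 377 CPM in Malat1-poor and to 361, 2467, 82.4 and 321 CPM in Malat1-rich droplets of iWAT DFAT, eWAT DFAT, iWAT SVF and eWAT SVF. The sum was lower in the poor class in both DFAT libraries. Most of it was Fabp4 (mean of 696 CPM over classes and libraries), itself among the 51 genes, so the sum is not a separate measure. The part of adipocyte markers in the differences was not tested.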

How the results depend on the processing

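Of 2823 values of 167 named genes under the alternatives, 2631 kept their side of the threshold, 140 lost the call and 30 gained it. Another 22 changed sign with a call in the main or the alternative fit. A value called in neither fit was counted as kept whatever its sign, and such sign changes are not listed below. With each library left out, 3715 to 3802 genes were lower and 3475 to 3710 higher, and the medians ran from -1.86 to -1.72 for nuclear RNAs, from -0.44 to -0.40 for the mitochondrial genome and from 0.55 to 0.59 for ribosomal proteins. Low cell cycle droplets, with fewer droplets, gave 2637 lower and 1845 higher, medians of -2.60, -0.13 and 1.16 in that order, and 0.18 for protrusion mRNAs and 0.049 for histones. Leaving out the library block gave 1965 and 1482. No paired analysis by replicate number was possible because each culture has 1 library. With no minimum CPM, 6416 were lower and the ribosomal median was 0.62. Total UMIs as the only scaling gave 2258 higher, medians of -2.09, -0.67 and 0.31, and -0.034 for ER, -0.10 for S phase, -0.0037 for mitosis and -0.091 for nuclear protein genes. Free RNA subtraction gave -2.32, -0.51 and 0.63. It took the same fixed share of UMIs from each class. In Malat1-poor droplets Malat1 stood at 4.39%, 5.25%, 4.15% and 6.72% of its level in free RNA. The share taken was larger, so it was more than these droplets could hold and can overstate the nuclear loss. A Malat1 limit of 0.05% gave -2.39, -0.49 and 0.70, a limit of 0.15% -1.47, -0.34 and 0.50, and stromal droplets -0.50 (mitochondrial) and 0.50 (ribosomal). The share of Malat1-poor droplets was 3.51%, 6.93%, 10.2% and 10.9% at 0.05%, 8.13%, 14.8%, 18.3% and 22.9% at 0.15%, 4.67%, 8.70%, 13.3% and 16.5% from 10000 UMIs, and 12.7% (eWAT DFAT), 17.5% and 19.5% (SVF) from 2000 UMIs. Signs changed with matched UMIs for Cxcl12 (-0.068), in stromal droplets for Lyz2 (0.74), without iWAT SVF for Cxcl5 (-0.22), and in low cell cycle droplets for mt-Co1 (0.12), Arl6ip1 (-0.22), Junb (-0.044), Ier3 (-0.022), H3f3b (-0.14), Cxcl1 (-0.27) and Cxcl12 (-0.0040). With total UMIs they changed for Snhg6 (-0.10), Calr (-0.18), Palld (-0.23), Hist1h1c (-0.17), Rrm1 (-0.093), Arl6ip1 (-0.030), Hsp90ab1 (-0.046), Ptma (-0.0067), H3f3b (-0.079), Cxcl1 (-0.042), Cxcl12 (-0.029) and Thy1 (-0.16). Beyond what fewer genes or droplets account for, the cause was not tested. Depth limits the droplets without a Malat1 UMI most, which were the shallowest.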
